A study of Homo sapiens with 16 samples.

Results

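The data describe 10 genes of the RGS family (regulators of G protein signalling) in human pancreatic progenitor cells whose actin was depolymerised by a drug. They are RGS2, RGS3, RGS4, RGS5, RGS10, RGS12, RGS14, RGS16, RGS17 and RGS19, taken from 35810 genes with summed reads. The list was drawn up because RGS4 was higher early after the drug. The levels of RGS4 at 3 h and 6 h against control 0 h, and of the other members at 3 h, are therefore given as a description with no test.

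RGS proteins bind the active, GTP-bound alpha subunit of a heterotrimeric G protein and speed the hydrolysis of its GTP, which ends the signal of a G protein-coupled receptor. RGS2, RGS3, RGS4, RGS5 and RGS16 belong to the R4 subfamily, whose members are mostly small proteins around a single RGS domain. RGS10, RGS12 and RGS14 form the R12 subfamily, and RGS17 and RGS19 belong to the RZ subfamily. In the pancreas, RGS4 and RGS16 are known as brakes on receptor signalling in beta cells, and Rgs16 marks endocrine progenitors of the mouse embryo.

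Poly(A) RNA was sequenced from 16 libraries in 6 groups. The cells carry an NGN3-GFP reporter allele in SA121, an established human embryonic stem cell line, and were differentiated to pancreatic progenitors by day 19, a feature that all groups share. Latrunculin B (LatB), which sequesters actin monomers, was given at 0.5 µM for 3 h (n = 3), 6 h (n = 3), 12 h (n = 2) or 24 h (n = 3). The controls were cells at 0 h (n = 3) and cells kept for 24 h with the vehicle DMSO (n = 2). The label of the 0 h control also names DMSO, whereas the series text has it harvested ahead of the treatment. All cells come from a single line, and nothing says that replicates were separate cultures, so that p-values measure only the spread between these libraries, which may be technical.

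The libraries held 23609727 to 33515398 estimated reads. Defining genes of pancreatic progenitors were present in all of them (PDX1 6510 to 11598 reads, NKX6-1 2248 to 5145 reads and GP2 28127 to 77705 reads), whereas PTF1A stayed at 2 to 22 reads. The summed level of the 10 pancreatic progenitor markers was 2094 to 3682 CPM (reads of a gene scaled to library size). No 2 libraries of the same group were duplicates, and pairs across groups were not checked. The 2 libraries of LatB 12 h stood apart from each other, with a correlation of log2 CPM across genes of 0.962 against 0.976 to 0.982 for the other replicate pairs. Of the 12 pericyte and stromal markers, 11 were higher in replicate 2 of LatB 12 h than in replicate 1, as were 7 of the 7 endothelial markers and 0 of the 10 pancreatic progenitor markers. Of the 10 endocrine progenitor markers 8 were higher in replicate 2, as were 4 of the 9 neural and 3 of the 6 pluripotency markers. The tested results at 12 h are therefore given with and without replicate 2.

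The 5 R4 and RZ members whose levels differed most between groups are RGS4, RGS16, RGS5, RGS2 and RGS17, and the 100 bases before the start of each are shown because the first 4 share a motif there. RGS10, of the R12 subfamily, is not shown and lacks that motif. Its highest group mean CPM was 4.92 times its lowest, against 3.28 for RGS5. RGS3 (2.06) was close to RGS17 (2.09) but had no window that was used. The sequences are those of RefSeq on GRCh38.p14, on the strand of the gene, 5′ to 3′. Capitals mark CCAAT on either strand (written as ATTGG where it lies on the other strand) and TATAAA.

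RGS4, chr1:163069261-163069360, plus strand: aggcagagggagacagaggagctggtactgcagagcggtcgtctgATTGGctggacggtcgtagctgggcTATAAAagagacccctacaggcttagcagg
RGS16, chr1:182604390-182604489, minus strand: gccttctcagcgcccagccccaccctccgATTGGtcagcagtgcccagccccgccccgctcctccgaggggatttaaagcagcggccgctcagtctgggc
RGS5, chr1:163202917-163203016, minus strand: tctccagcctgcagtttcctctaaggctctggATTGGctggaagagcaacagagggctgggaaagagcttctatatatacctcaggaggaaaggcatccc
RGS2, chr1:192808939-192809038, plus strand: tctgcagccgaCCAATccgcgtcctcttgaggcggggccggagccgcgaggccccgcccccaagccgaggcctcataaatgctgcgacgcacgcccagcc
RGS17, chr6:153131283-153131382, minus strand: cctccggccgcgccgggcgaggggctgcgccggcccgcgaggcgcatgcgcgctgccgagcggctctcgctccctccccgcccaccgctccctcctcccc

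A promoter window was used where its start carried at least 50% of the transcript abundance of the gene, which held for 6 members (these 5 and RGS10). Within the 250 bases before the start, CCAAT on either strand was found in 4 of the 6, at −55 and −225 for RGS4, −71 and −221 for RGS16, −68 for RGS5 and −89 for RGS2. It was present in 11194 of the 34943 RefSeq windows of the same length within the 250 bases, and in 18.1% of them within the last 100 bases. TATAAA was found in RGS4 alone, at −30, and in 10.8% of all windows. CANNTG, the E-box, was found in 3 of the 6 and in 61.8% of all windows. GGAATG, TGACGTCA and the CArG box were found in 0 of the 6, against 11.9%, 1.63% and 1.16% of all windows. These are matches of letters, not shown binding sites. The RGS4 stretch also lies within an exon, at chr1:163069252-163069528, of 2 longer RGS4 transcripts.

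RGS4 and RGS5 are neighbours on chromosome 1 (GRCh38), at chr1:163068775-163076802 on the plus strand and chr1:163111121-163321791 on the minus strand, 34318 bases apart. RGS16 lies further along the same chromosome at chr1:182598623-182604389, next to RGS8, and RGS2 at chr1:192809039-192812275, next to RGS13. The neighbours that are no members were low in these cells, with 0 to 10 reads for RGS8 and 0 to 4 reads for RGS13 per library. RGS5 overlaps NUF2 on the opposite strand, and no source says whether reads were counted by strand, so that reads of the shared stretch cannot be assigned with certainty.

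RGS4, an R4 member that acts on G alpha i/o and q, was the member that differed most from control 0 h at 3 h. Its CPM was 9.05, 8.78 and 10.1 in control 0 h, and 64.5, 72.5 and 68.9 after 3 h of LatB. The 3 h libraries were all far above the control libraries. It was 55.8, 58.4 and 61.4 at 6 h, 29.9 and 41.1 at 12 h, and 51.2, 73.6 and 71.4 at 24 h, against 15.5 and 15.7 in control 24 h. Every library with the drug thus lay above every control library, and the 12 h libraries lay below all others with the drug. The log2 fold change against control 0 h, by which the gene was chosen, was 2.89 (SE 0.14) at 3 h and 2.65 (SE 0.14) at 6 h.

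At 12 h and 24 h RGS4 was tested by the quasi-likelihood test of edgeR, and a value with an adjusted p under 0.05 is said to have passed the test, or to be called. RGS4 was 3.83-fold higher at 12 h (log2 fold change 1.94, SE 0.15, adjusted p = 1.44e-06, edgeR), against the same control 0 h libraries that served to choose it. The comparison that shares no library with that choice is LatB 24 h against control 24 h, where RGS4 rose 4.20-fold (log2 fold change 2.07, SE 0.16, adjusted p = 1.16e-06, edgeR). Without replicate 2 of LatB 12 h, the 12 h value was 1.69 (adjusted p = 1.25e-05). RGS4 was also somewhat higher in control 24 h than in control 0 h (log2 difference 0.75, SE 0.16, adjusted p = 0.0671, edgeR). Time in culture and the vehicle cannot be told apart there. That difference passed the threshold in a fit without the 12 h libraries (adjusted p = 0.0273, edgeR) and by DESeq2 (adjusted p = 0.00141). It passed in 4 of the 16 alternatives run, with values from 0.55 to 0.81 over all of them.

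**Figure D1:**
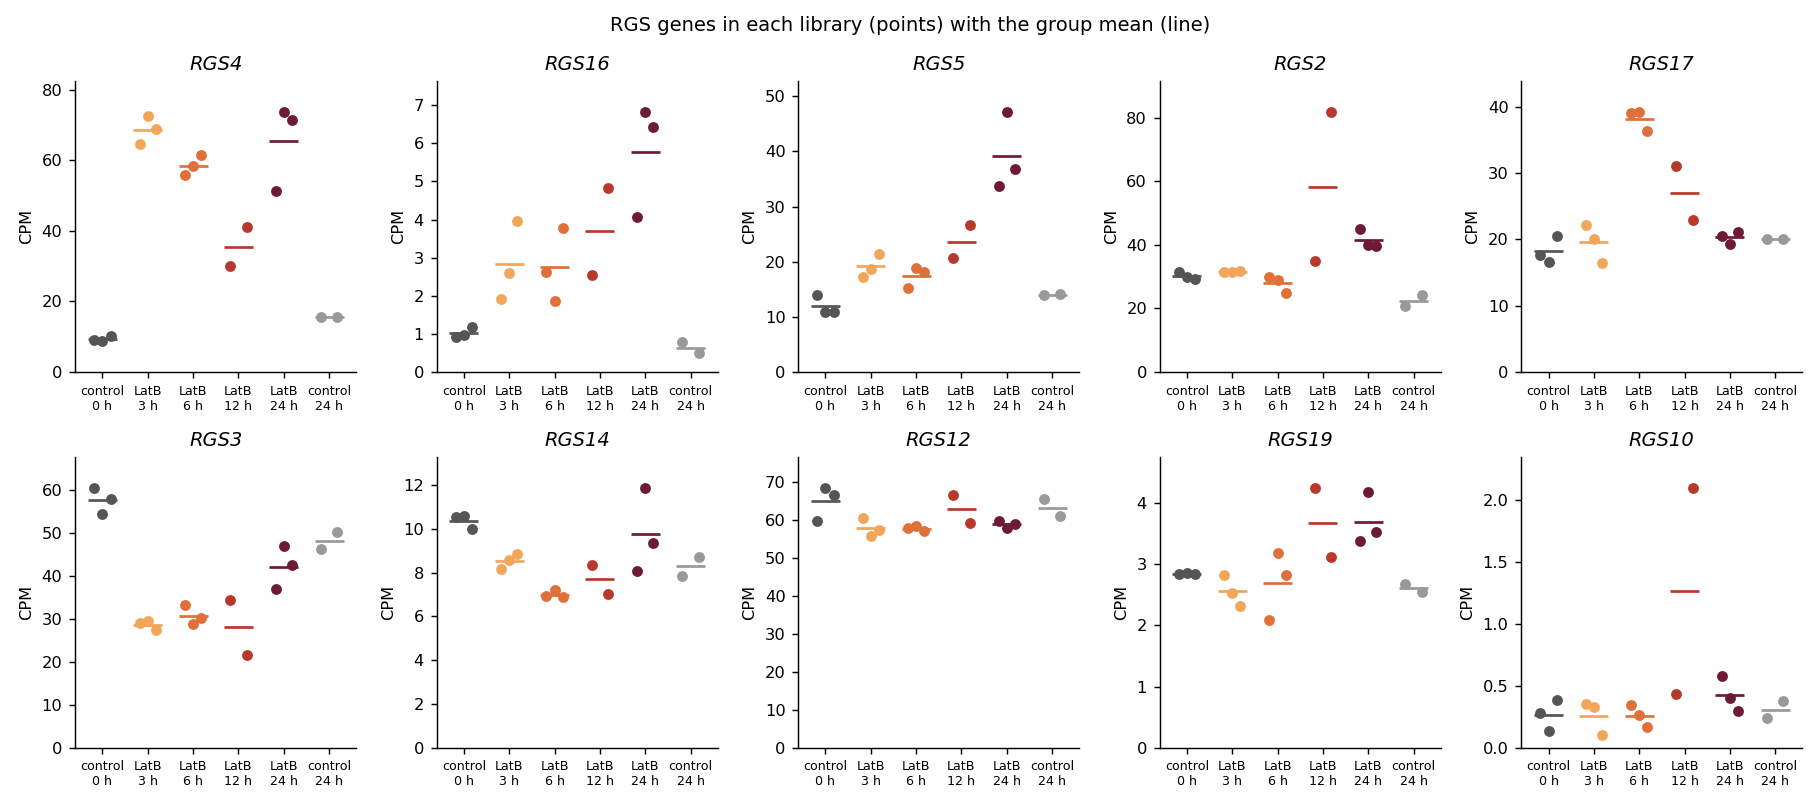
Level of each RGS gene in CPM on the vertical axis, starting at 0, for the 6 groups; each point is a library and each line the mean of its group. RGS4 is above all control libraries in every library with the drug, RGS17 peaks at 6 h, RGS3 is low from 3 h to 12 h, and RGS2 and RGS10 are highest in replicate 2 of LatB 12 h.

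RGS16, an R4 member that acts on G alpha i/o and q, was low in the controls and higher in each group with the drug. Its CPM was 0.92, 0.97 and 1.19 in control 0 h and 0.78 and 0.50 in control 24 h. It was 1.92, 2.60 and 3.95 at 3 h, 2.63, 1.85 and 3.77 at 6 h, 2.54 and 4.84 at 12 h, and 4.06, 6.81 and 6.42 at 24 h. The controls did not overlap with any library of the drug, and the whole range corresponds to only 16 to 222 reads. RGS16 rose 2.68-fold at 6 h (log2 fold change 1.42, SE 0.36, adjusted p = 0.00633), 3.61-fold at 12 h (1.85, SE 0.39, adjusted p = 0.00244) and 8.98-fold at 24 h against control 24 h (3.17, SE 0.44, adjusted p = 0.000111). Without replicate 2 of LatB 12 h the 12 h value was 1.31 (adjusted p = 0.0432). The value at 3 h, given as a description, was 1.46 (SE 0.36) on the log2 scale. The rise at 24 h was the largest of any member in that comparison, over 23 and 16 reads in control 24 h. Over the alternatives run, its log2 value ran from 1.73 to 3.51, against 1.98 to 2.82 for RGS4, so that the ranking was not secure.

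RGS5, an R4 member widely used as a marker of pericytes, was modestly higher early and rose most at 24 h. Its CPM was 14.03, 10.92 and 10.94 in control 0 h, 17.3, 18.8 and 21.4 at 3 h, 15.2, 18.8 and 18.1 at 6 h, and 20.7 and 26.6 at 12 h. At 24 h it was 33.7, 47.1 and 36.8 with the drug against 14.03 and 14.06 with the vehicle, so that the groups lay far apart. RGS5 rose 2.79-fold at 24 h (log2 fold change 1.48, SE 0.17, adjusted p = 2.37e-05), 1.98-fold at 12 h (0.99, SE 0.16, adjusted p = 0.000446) and 1.45-fold at 6 h (0.54, SE 0.15, adjusted p = 0.0104). Without replicate 2 of LatB 12 h the 12 h value was 0.79 (adjusted p = 0.00764). At 3 h the log2 difference was 0.68 (SE 0.15), as a description. The 6 h call was lost without replicate 2 of control 0 h (0.46, adjusted p = 0.056) and without replicate 2 of LatB 6 h (0.46, adjusted p = 0.0511), and with control 24 h as the reference (0.31, adjusted p = 0.16). Values per transcript length (TPM, abundances with an equal total in all libraries) gave differences of 0.14 at 6 h and 0.49 at 12 h on the log2(TPM + 1) scale, neither past the threshold (adjusted p = 0.531 and 0.057, limma). The summed CPM of the 12 pericyte and stromal markers was 326 to 347 in LatB 24 h and 366 to 381 in control 24 h, and most of it was NOTCH3 alone (261 ± 17.2 CPM, n = 3, and 265 ± 1.17 CPM, n = 2). The part of pericytes in the RGS5 level was not tested. Of these 12 markers 11 passed the filter, of which 0 rose and 1, KCNJ8, fell at 24 h (log2 fold change −2.41, SE 0.27, adjusted p = 2e-05, edgeR). Of all genes, 21.9% were called higher and 18.8% lower in LatB 24 h against control 24 h.

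RGS2, an R4 member that prefers G alpha q, stayed near its control up to 6 h and was higher later. Its CPM was 31.4, 30.02 and 29.1 in control 0 h, 31.4, 31.6 and 31.7 at 3 h, and 29.8, 29.0 and 24.9 at 6 h. The 6 h difference was −0.11 on the log2 scale (SE 0.21, adjusted p = 0.704). At 24 h it was 45.0, 39.9 and 39.6 against 20.7 and 24.2 with the vehicle, with no overlap. RGS2 rose 1.85-fold at 24 h (log2 fold change 0.88, SE 0.24, adjusted p = 0.00981), a call that was lost without replicate 1 of control 24 h (0.78, adjusted p = 0.0956) and with control 0 h as the reference (0.46, adjusted p = 0.0947). The 24 h call was kept in a fit without the 12 h libraries. Control 24 h lay below control 0 h by 0.43 on the log2 scale, which did not pass the test (log2 difference −0.43, adjusted p = 0.722), although it did in a fit without the 12 h libraries (adjusted p = 0.0361). At 12 h the libraries held 34.9 and 81.7 CPM, and RGS2 passed the test with both (0.96, SE 0.23, adjusted p = 0.00548) but not without replicate 2 (0.21, adjusted p = 0.168).

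RGS10, an R12 member best known from microglia and other immune cells, was at 3 to 17 reads in 15 of the 16 libraries and at 62 reads in replicate 2 of LatB 12 h. Its CPM ran from 0.10 to 0.58 in those 15 libraries and was 2.10 in that library. It passed the test at 12 h (log2 fold change 2.29, SE 0.63, adjusted p = 0.0126) with both libraries. Without replicate 2 of LatB 12 h the value was 0.74 (adjusted p = 0.477), and without replicate 2 of control 0 h it was 1.94 (adjusted p = 0.0544). In the same library RGS2 was highest, and the stromal markers LUM and DCN (75.5 against 14.8 CPM, and 8.5 against 0.8 CPM in replicate 1) and the endothelial marker KDR (37.0 against 9.0 CPM) were also high. The part of other cell types in the RGS2 and RGS10 values at 12 h was not tested. In bulk RNA, more or fewer cells of a type and more or less RNA per cell cannot be told apart.

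**Figure D2:**
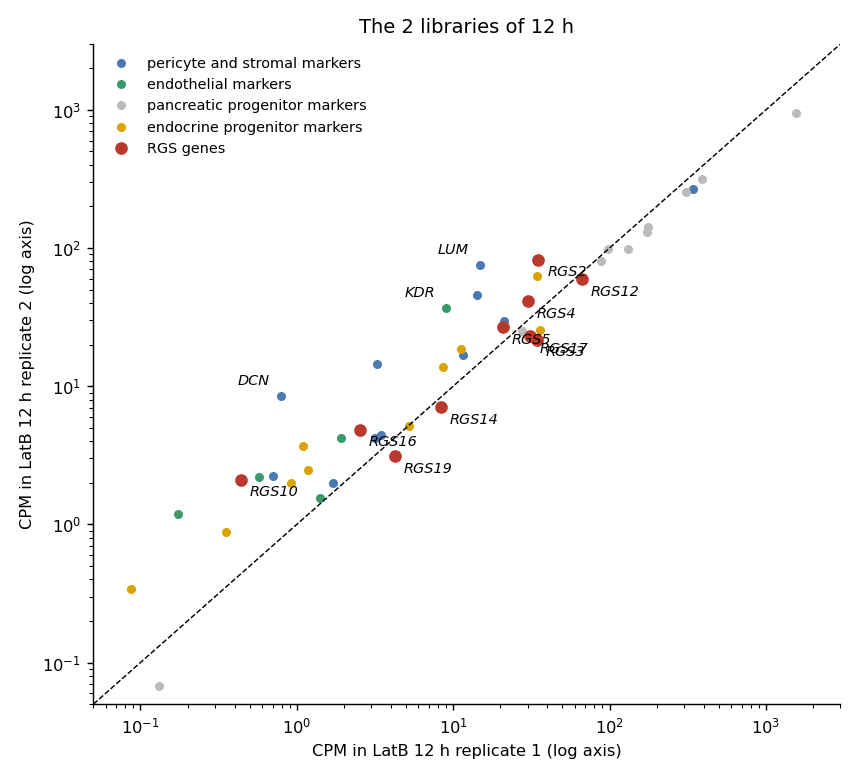
CPM of the RGS genes and of 4 marker lists in the 2 libraries of LatB 12 h, both axes logarithmic, with the line of equal levels dashed; markers at 0 in a library are not drawn. RGS2 (34.9 and 81.7 CPM), RGS10, RGS4, RGS5 and RGS16 lie above the line, as do LUM, DCN and KDR and most endocrine progenitor markers. The other RGS genes lie below it, and the pancreatic progenitor markers lie on or below it.

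RGS17, an RZ member that acts on G alpha i/o and z, was the member with a peak at 6 h. Its CPM was 17.7, 16.6 and 20.6 in control 0 h and 22.2, 20.1 and 16.4 at 3 h, which overlapped. At 6 h it was 39.1, 39.2 and 36.3, above every other library. It was 31.1 and 23.0 at 12 h and 20.6, 19.2 and 21.1 at 24 h, the last on both sides of the 20.1 and 20.1 of control 24 h. RGS17 rose 2.09-fold at 6 h against control 0 h (log2 fold change 1.06, SE 0.12, adjusted p = 1.5e-05) and 1.95-fold between LatB 3 h and LatB 6 h (0.96, SE 0.12, adjusted p = 0.00013). It then fell between LatB 6 h and LatB 24 h (−0.91, SE 0.12, adjusted p = 6.72e-05). At 24 h the difference from control 24 h was 0.02 (SE 0.14, adjusted p = 0.941). The 12 h value was 0.56 (SE 0.13, adjusted p = 0.00556), but 0.33 (adjusted p = 0.0857) without replicate 1 of LatB 12 h and 0.77 (adjusted p = 0.00108) without replicate 2.

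RGS3, an R4 member that acts on G alpha i and q, was lower under the drug up to 12 h. Its CPM was 60.6, 54.5 and 58.1 in control 0 h, 29.1, 29.4 and 27.4 at 3 h, and 33.2, 28.8 and 30.2 at 6 h. At 12 h it was 34.4 and 21.7, and at 24 h 37.0, 47.0 and 42.7 against 46.4 and 50.3 in control 24 h. The groups did not overlap up to 12 h, and overlapped at 24 h. RGS3 fell at 6 h (log2 fold change −0.91, SE 0.13, adjusted p = 9.94e-05) and 12 h (−1.05, SE 0.15, adjusted p = 0.000155), and its value at 3 h was −1.01 (SE 0.13). Without replicate 2 of LatB 12 h the 12 h value was −0.75 (adjusted p = 0.000522). At 24 h the difference was −0.19 (SE 0.14, adjusted p = 0.3), which became −0.45 (adjusted p = 0.0122) with control 0 h as the reference. Between LatB 6 h and LatB 24 h it rose again (0.46, SE 0.13, adjusted p = 0.0138), a call that was lost without replicate 2 of LatB 6 h (0.41, adjusted p = 0.0544) or replicate 2 of LatB 24 h (0.37, adjusted p = 0.0624).

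The other R12 members moved less. RGS14, a scaffold that also binds inactive G alpha i through its GoLoco motif, was at 10.56, 10.59 and 10.01 CPM in control 0 h and 6.93, 7.19 and 6.88 at 6 h. It fell at 6 h (log2 fold change −0.57, SE 0.12, adjusted p = 0.00207), but against control 24 h (7.86 and 8.74 CPM) the 6 h value was −0.25 (adjusted p = 0.169). At 12 h it fell too (−0.44, SE 0.14, adjusted p = 0.0251), and without replicate 2 of LatB 12 h the value was −0.31 (adjusted p = 0.185). The 12 h call was also lost against control 24 h (−0.11, adjusted p = 0.602) and without replicate 1 (−0.42, adjusted p = 0.0545) or replicate 2 (−0.44, adjusted p = 0.052) of control 0 h. At 24 h it was at 8.09, 11.9 and 9.38 CPM and did not pass the test (0.24, SE 0.14, adjusted p = 0.181), but did without replicate 1 of LatB 24 h (0.36, adjusted p = 0.0366).

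RGS12, a large multidomain member with a GoLoco motif, was the steadiest, with group means between 57.8 and 65.01 CPM. It fell at 6 h (log2 fold change −0.17, SE 0.06, adjusted p = 0.0297). That call was lost without replicate 2 (−0.15, adjusted p = 0.0834) or replicate 3 (−0.15, adjusted p = 0.0924) of control 0 h, or replicate 3 of LatB 6 h (−0.18, adjusted p = 0.0552). RGS19, an RZ member that binds GIPC1, was at 2.1 to 4.2 CPM in every library. Its difference at 24 h was 0.50 (SE 0.19, adjusted p = 0.0543), and it passed the test in a fit without the 12 h libraries (adjusted p = 0.0361). Over the alternatives run, that difference ran from −0.14 to 0.56. The mean TPM of RGS19 was 4.07 in LatB 24 h and 4.40 in control 24 h, so that the direction was not secure.

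**Figure D3:**
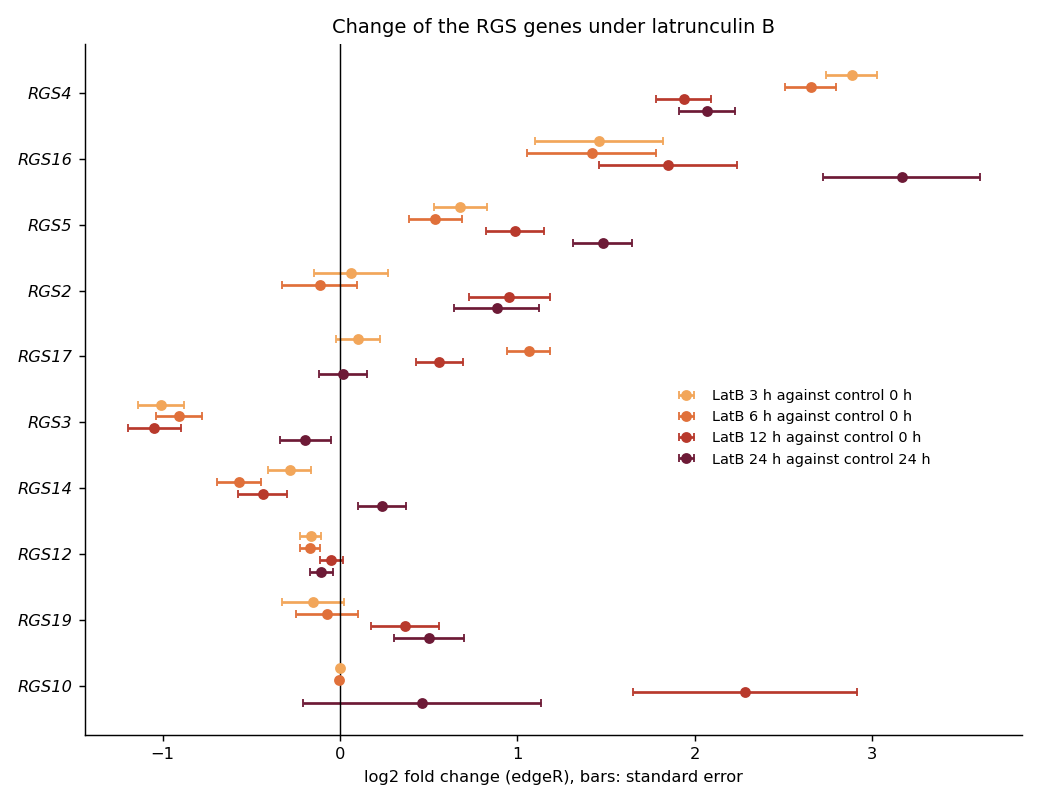
Log2 fold change of each RGS gene (horizontal axis) under latrunculin B, with the standard error as a bar, for 3 h, 6 h and 12 h against control 0 h and 24 h against control 24 h; RGS10 at 3 h and 6 h is drawn without a bar. RGS4 lies between 1.94 and 2.89 at all times, RGS16 reaches 3.17 at 24 h, and RGS3 lies near −1 up to 12 h.

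Counted over the list, all 10 members passed the filter on low counts. At 3 h, the comparison used for the choice, 3 were above and 2 below the control by the threshold applied to all genes, which called 16.8% of the 16705 genes higher and 14.7% lower, and this count is a description that serves as no test. At 6 h 4 were higher, RGS4 among them by the choice, and 3 fell, against 22.9% and 20.4% of all genes. At 12 h 6 rose and 2 fell, against 19.1% and 16.8%, and without replicate 2 of LatB 12 h 5 members passed in place of 8. At 24 h against control 24 h 4 rose (RGS2, RGS4, RGS5 and RGS16) and 0 fell by edgeR, against 21.9% and 18.8%. At an unadjusted p under 0.05 edgeR gave 5 and 0, and DESeq2 and limma each gave 4 and 0 after adjustment. The shares of all genes given here and below are those of edgeR after adjustment with all libraries. They are no background for counts at another threshold, by another tool or with a library left out. The median log2 fold change of the members was 0.03, −0.04, 0.76 and 0.48 at 3, 6, 12 and 24 h, against 0.00, −0.01, 0.01 and 0.01 over all genes.

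The day in culture without the drug gave fewer calls. Between control 24 h and control 0 h, 0 of the 10 members passed the test by edgeR, where 0.0299% of all genes were called higher and 0.221% lower. At an unadjusted p under 0.05 there were 2 (RGS4 higher and RGS14 lower), DESeq2 called 1 (RGS4) and limma 0. Within the drug series, 1 member, RGS17, rose between LatB 3 h and LatB 6 h and 0 fell, against 11.9% and 10.3% of all genes. For that comparison edgeR gave 1 higher and 1 lower (RGS14) at an unadjusted p under 0.05, and DESeq2 and limma called RGS17 alone. Between LatB 6 h and LatB 24 h 5 rose (RGS2, RGS3, RGS5, RGS14 and RGS16) and 1 fell (RGS17), against 19% and 18.9%. The RGS14 call (0.48, SE 0.12, adjusted p = 0.00706) was lost on log2(TPM + 1), where the value was 0.25. Leaving out replicate 2 of LatB 24 h reduced these 6 calls to 3. The RGS2 call in that comparison (0.57, SE 0.21, adjusted p = 0.0456) was lost when any 1 of the 6 libraries compared was left out, with values of 0.50 to 0.62. That of RGS16 (1.07, SE 0.33, adjusted p = 0.0222) was lost without replicate 1 or 2 of LatB 6 h (1.04 and 0.85) or replicate 2 or 3 of LatB 24 h (0.93 and 0.99). Both calls were kept in a fit without the 12 h libraries.

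The drug effect at 24 h, relative to control 24 h, was compared with that at 6 h by a test of the difference. The reference at 6 h was control 0 h, since no vehicle library of 6 h was used. The difference therefore includes any change between the 2 controls. From control 0 h to control 24 h, RGS2, RGS16, RGS14 and RGS3 went down (log2 differences −0.43, −0.68, −0.32 and −0.26). RGS5 and RGS17 went up (0.23 and 0.14). These control changes did not pass the test by edgeR with all libraries. The difference passed the test for 6 members, higher at 24 h for 5 and lower for 1, where 11.4% of all genes were called higher and 11.1% lower. RGS17 had the lower effect at 24 h (difference −1.05, SE 0.18, adjusted p = 0.00132), and RGS14 (0.81, SE 0.18, adjusted p = 0.00693), RGS5 (0.94, SE 0.22, adjusted p = 0.00848) and RGS3 (0.71, SE 0.19, adjusted p = 0.0181) the higher. The RGS14 difference did not pass on the TPM scale (0.34 on log2(TPM + 1), adjusted p = 0.229, limma). RGS16 (1.75, SE 0.56) and RGS2 (0.999, SE 0.32) passed as well, each with an adjusted p of 0.038. For RGS4, chosen on its early level, the difference was −0.58 (SE 0.21) and is a description. Without replicate 1 of control 24 h the RGS3 difference was 0.66 (adjusted p = 0.085), and 3 members passed in place of 6. The RGS2 difference was lost in each of the 11 fits that left out a library of the 4 groups compared, with values of 0.89 to 1.11, and that of RGS16 in 9 of these 11, with values of 1.46 to 2.09.

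**Figure D4:**
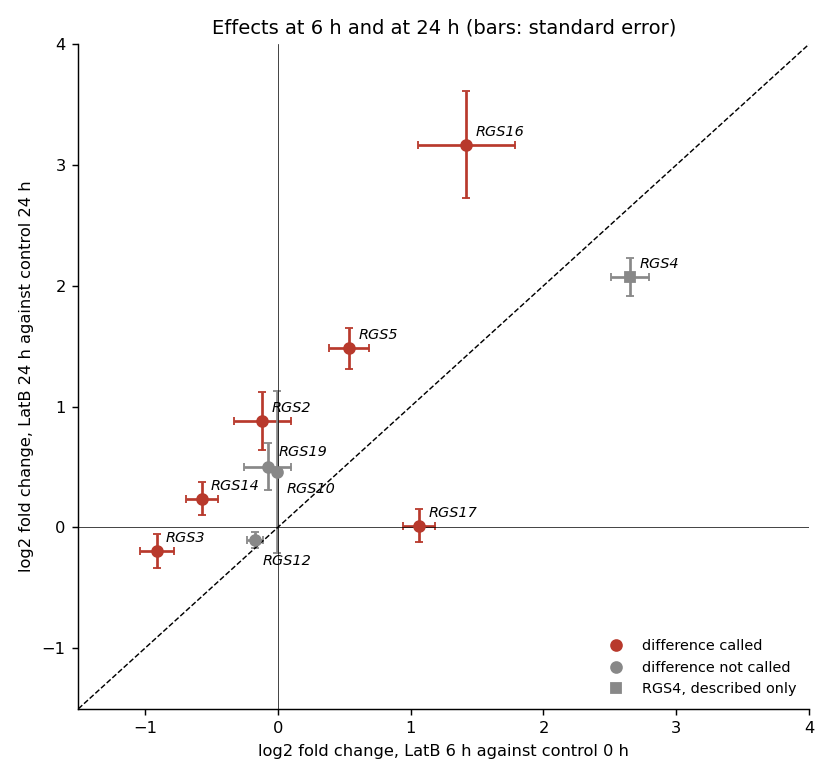
Log2 fold change at 6 h against control 0 h (horizontal) and at 24 h against control 24 h (vertical) for the 10 RGS genes, with standard errors as bars and the line of equal effects dashed; RGS10 has no horizontal bar. Red points passed the test of the difference (RGS17 below the line, 5 others above it), and RGS4, the square, is described only.

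Levels of different genes were compared per length, in TPM. In control 0 h the order was RGS12 (59.4 ± 10.03, SD), RGS3 (56.3 ± 4.08), RGS2 (44.4 ± 1.69), RGS14 (14.3 ± 1.18), RGS5 (11.9 ± 1.29), RGS4 (9.45 ± 2.41), RGS17 (4.28 ± 0.46), RGS19 (2.68 ± 0.06), RGS16 (0.69 ± 0.10) and RGS10 (0.58 ± 0.21), each over 3 libraries. The ranges of RGS12 and RGS3 overlapped, as did those of RGS14 and RGS5, RGS5 and RGS4, and RGS16 and RGS10. The places of RGS12 and RGS14 are uncertain, since much of their TPM was assigned to short forms. The long coding form RGS12-204 held 51.8% of the reads of RGS12 but 13.4% of its TPM, as means over all libraries. At 3 h RGS4 stood first with 73.9 ± 12.9 TPM (n = 3), above the range of RGS12. At 24 h RGS4 (71.6 ± 7.28), RGS2 (62.6 ± 4.94) and RGS12 (53.9 ± 22.3) had overlapping ranges over 3 libraries. RGS4 thus made up 4.66% of the summed TPM of the 10 genes in control 0 h, 31.5% at 3 h, 26.9% at 6 h, 15.6% at 12 h, 25.7% at 24 h and 7.49% in control 24 h. The share of RGS3 was 27.6% in control 0 h and 10.97% at 3 h, and the sum itself was 196 to 210 TPM in control 0 h and 217 to 256 TPM at 3 h.

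**Figure D5:**
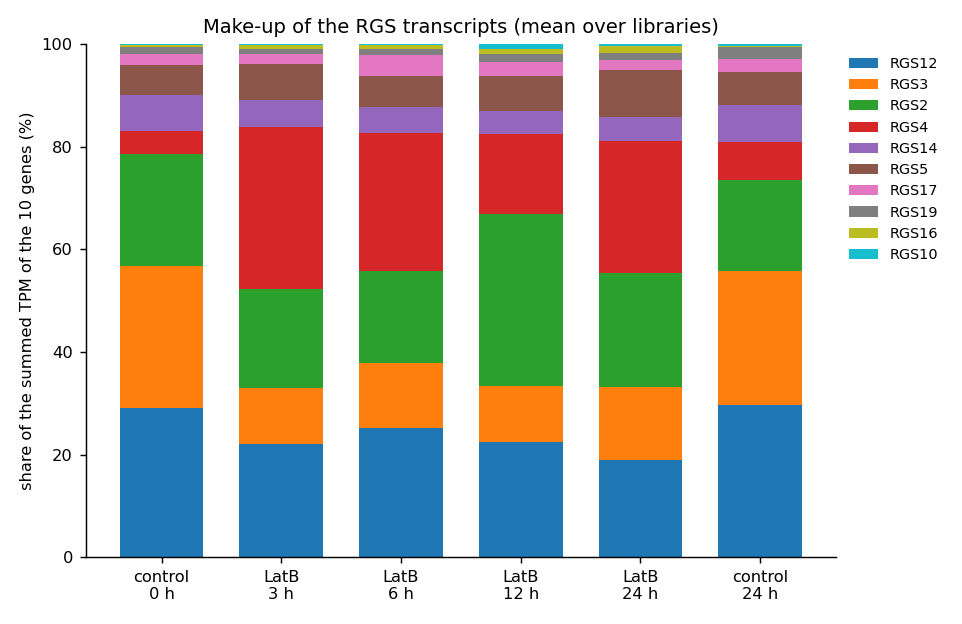
Share of each RGS gene in the summed TPM of the 10 genes (vertical axis, percent), as the mean over the libraries of each group. The RGS4 segment grows from 4.66% in control 0 h to 31.5% at LatB 3 h, while the RGS3 segment goes from 27.6% to 10.97%.

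The transcript forms behind these levels differed in how surely they were resolved. RGS16 and RGS17 were each carried by a single transcript with 100% of their TPM, and RGS2-201 held 96.8% of that of RGS2. RGS3 was carried mainly by RGS3-230, a short form with an exon length of 1503 bases, which held 83.5% of its TPM among 30 annotated transcripts. RGS4 was spread over several coding forms, led by RGS4-202 with 36.3% (18.8% to 46.7% between libraries), whose shares are uncertain because salmon divides reads between overlapping forms. Transcripts that start at the position used for its promoter above held 82.2% of the TPM of RGS4. For RGS12 and RGS14 much of the TPM was assigned to short forms with retained introns or no defined coding sequence, such as RGS12-218 with 22.7%, and the shares of these forms differed between libraries.

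Of the 11 other RGS family genes, 5 passed the filter, each at no more than 71 reads in any library. RGS11, which pairs with the G beta 5 subunit, was the only one to pass the test at 24 h, where it fell (log2 fold change −0.96, SE 0.26, adjusted p = 0.00988). It stood at 1.42 ± 0.01 CPM in control 24 h (n = 2) and 0.73 ± 0.12 CPM in LatB 24 h (n = 3), with 18 to 45 reads per library over all groups.

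The partners of the RGS proteins were counted in LatB 24 h against control 24 h, with the medians of each list beside that of all genes (0.01), and the counts are to be read against the 21.9% of all genes called higher and 18.8% called lower. Of the G alpha i/o/z subunits, the main substrates of this family, 5 of 8 passed the filter, with 1 higher (GNAI3, log2 fold change 0.32, SE 0.06, adjusted p = 0.000804), 1 lower (GNAZ, −0.37, SE 0.12, adjusted p = 0.0231) and a median of 0.12. Of the G alpha q/11 subunits 2 of 4 passed the filter, with GNA11 higher (0.16, SE 0.05), GNAQ lower (−0.21, SE 0.06) and a median of −0.03. Of the G alpha s and 12/13 subunits all 4 passed the filter, with 2 higher, GNA12 (0.40, SE 0.05) and GNA13 (0.18, SE 0.06), and a median of 0.02. Of the G beta and gamma subunits 14 of 17 passed the filter, with 4 higher and 2 lower and a median of 0.09. GNG4, a G gamma subunit, rose most, from 5.67 ± 0.40 CPM (n = 2) to 13.5 ± 1.23 CPM (n = 3), with a log2 fold change of 1.25 (SE 0.15, adjusted p = 4.47e-05), followed by GNG7 (0.32, SE 0.12). The subunit changes were small beside those of RGS4 and RGS16, apart from that of GNG4.

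Downstream of the G proteins, the adenylyl cyclases make cyclic AMP, and 9 of 10 passed the filter, with 2 higher, 4 lower and a median of −0.24. ADCY8 fell from 3.27 ± 0.41 CPM (n = 2) to 0.38 ± 0.15 CPM (n = 3) at 24 h (log2 fold change −3.08, SE 0.44, adjusted p = 0.000145), and ADCY1 rose from 9.28 ± 0.73 to 19.3 ± 1.14 CPM (1.05, SE 0.13, adjusted p = 4.92e-05). Of the 4 phospholipase C beta enzymes, which G alpha q activates, 2 rose and 1 fell, with a median of 0.34. PLCB1 was the one that fell (−1.12, SE 0.29, adjusted p = 0.00722), and PLCB4 rose (0.45, SE 0.14, adjusted p = 0.0225). Of the 7 receptor kinases and arrestins, which desensitise the receptors themselves, 1 rose and 1 fell, with a median of 0.02. GRK3 fell (−0.86, SE 0.08, adjusted p = 7.66e-06) and ARRB2 rose (0.25, SE 0.08, adjusted p = 0.0301).

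The remaining lists concern what controls RGS proteins. RGS4, RGS5 and RGS16 proteins are degraded through the Cys/Arg N-degron pathway, in which the oxidase ADO modifies their N-terminal cysteine, so that RNA and protein levels need not move together. Of its 7 genes 3 rose at 24 h, against 21.9% of all genes, led by UBR1 (0.24, SE 0.07, adjusted p = 0.0169) and ADO (0.21, SE 0.08, adjusted p = 0.0391), and the others did not pass the test, with a median of 0.13. Of the 8 partner and GoLoco proteins 6 passed the filter, with PPP1R9B higher (0.15, SE 0.05), GPSM1 lower (−0.31, SE 0.08) and a median of −0.05. Of the 10 genes of the sphingosine 1-phosphate axis, whose receptors couple to G proteins that RGS proteins regulate, 8 passed the filter, with 2 higher, 2 lower and a median of −0.35. SPHK1, which makes sphingosine 1-phosphate, fell (−0.66, SE 0.13, adjusted p = 0.00114), as did SGPP1 (−0.54, SE 0.11, adjusted p = 0.00129).

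NEUROG3, the transcription factor that starts endocrine specification, was set beside RGS4. Its CPM was 0.4, 0.6 and 1.4 in control 0 h, 0.8, 1.5 and 1.0 at 3 h, 3.3, 3.4 and 4.2 at 6 h, 8.6 and 13.9 at 12 h, and 25.6, 59.8 and 49.5 at 24 h, against 2.1 and 2.3 in control 24 h. NEUROG3 at 3 h lay within or next to its control range (log2 difference 0.46, SE 0.49, adjusted p = 0.52, edgeR). RGS4 had its highest group mean at 3 h, but it was chosen for that early level. Which gene rose first was therefore not tested. NEUROG3 rose at 6 h (2.21, SE 0.43, adjusted p = 0.00101) and at 24 h (4.34, SE 0.42, adjusted p = 7.66e-06). Over the 16 libraries, which share the course of time and drug, the Pearson correlation of log2 CPM with NEUROG3 was 0.87 for RGS5, 0.72 for RGS16, 0.67 for RGS19, 0.54 for RGS2, 0.52 for RGS4 and 0.48 for RGS10, as a description. It was 0.19 for RGS17 and −0.04 to −0.25 for RGS14, RGS3 and RGS12. In LatB 24 h, replicate 1 was the lowest of the 3 libraries for NEUROG3 and for RGS3, RGS4, RGS5, RGS14, RGS16 and RGS19. It was the highest for RGS2, RGS10 and RGS12, and RGS17 lay between. The stromal markers LUM (19.0 against 3.9 and 8.5 CPM) and DCN (1.47 against 0.09 and 0.10 CPM) were also highest in replicate 1. So was the endothelial marker KDR (15.1 against 2.9 and 7.1 CPM). The part of other cell types in the RGS levels of that library was not tested. The members lowest in replicate 1 of LatB 24 h included RGS3 and RGS14, whose correlation with NEUROG3 was −0.17 and −0.04. These places in 1 library are a description. Of the 10 endocrine progenitor markers 6 rose at 24 h, where 21.9% of all genes were called higher, led by NEUROG3 and INSM1 (4.31, SE 0.39, adjusted p = 4.69e-06), and their summed CPM was 37.1 to 45.3 in control 0 h, 72.8 to 85.8 in control 24 h and 129 to 335 in LatB 24 h. The part of a larger number of endocrine progenitors in the RGS levels at 24 h was not tested.

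The other marker lists moved in both directions at 24 h, where 21.9% of all genes were called higher and 18.8% lower. Of the 10 pancreatic progenitor markers 4 rose and 3 fell, with PTF1A (1.73, SE 0.62, adjusted p = 0.0375) and ONECUT1 (−1.09, SE 0.09, adjusted p = 2.58e-06) moving most. Of the 7 endothelial markers 6 passed the filter, with ESAM higher (1.62, SE 0.34) and TIE1 lower (−0.80, SE 0.23). Their summed CPM was 7.15 to 20.9 in LatB 24 h and 6.98 to 7.99 in control 24 h. Of the 9 neural markers 5 passed the filter, with 1 higher and 2 lower, of which SNAP25 (−0.97, SE 0.17) and STMN2 (−0.92, SE 0.28) moved most. Of the 6 pluripotency markers 2 rose and 2 fell, with SOX2 (2.59, SE 0.85) and LIN28A (−0.76, SE 0.08) moving most.

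The genes whose log2 CPM followed that of RGS4 most closely over the 16 libraries, among 12589 genes compared, were MED26 (Pearson correlation 0.953), ZFR (0.952), OCIAD1 (0.951), COPS2 (0.944) and SMCR8 (0.944). Their changes were small beside that of RGS4: the mean CPM of MED26 was 11.6 in control 0 h and 16.8 at 3 h. The least alike were ID3 (−0.953), ID4 (−0.950) and FRMD4A (−0.946). The mean CPM of ID3, an inhibitor of basic helix-loop-helix factors, was 195.6 in control 0 h, 12.8 at 3 h and 22.8 at 24 h, against 161.3 in control 24 h. Among the members the correlation over the 16 libraries was 0.85 between RGS5 and RGS16, 0.81 between RGS4 and RGS16, 0.70 between RGS4 and RGS5, and 0.77 between RGS2 and RGS10, which were both highest in replicate 2 of LatB 12 h. It was 0.73 between RGS3 and RGS14, −0.76 between RGS4 and RGS12, −0.74 between RGS4 and RGS3, and −0.72 between RGS14 and RGS17, all descriptions over libraries that share groups.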

How the data were processed

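The authors deposited 1 transcript table per library in the format of salmon (version 1.3.0 and build hg38 in the submitters' processing notes), with estimated counts and TPM for 177456 transcripts. The study's methods describe STAR and gene counts, another route, so that the upstream settings are uncertain. A deposited table of the authors' own log2 fold changes and p-values, with 16 columns of per-sample values, was not used.

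Transcripts were joined to genes through GENCODE 44 (GRCh38), which matched 165533 of them and left out 2.92% to 3.17% of the reads per library. The estimated counts were summed and rounded, and TPM summed. All 16 libraries entered 1 fit with edgeR 4.0.16 in R 4.3.3 (quasi-likelihood test, two-sided, TMM scaling, filterByExpr, 16705 genes). Benjamini-Hochberg adjustment covered all 16705 genes, with a threshold of 0.05. SE is the log2 fold change divided by the square root of F. DESeq2 1.42.0 and limma 3.58.1 on log2(TPM + 0.1) and log2(TPM + 1) were alternatives, with other scalings and filters, a replicate block, the other control and each library left out. The code was tested on simulated data.

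The members, lists and motifs were chosen with earlier results of these data known. Named were all members, NEUROG3, the 2 list genes that changed most among those called at 24 h, and the 5 genes most and 3 least like RGS4. KDR, LUM, DCN, NOTCH3, PDX1, NKX6-1 and GP2 were named after their values were seen. Some list results are not reported here. With 23609727 to 33515398 estimated reads per library, counting error is largest for RGS10, RGS16 and RGS19.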

Additional observations from a re-analysis of the deposited data

Results flagged for a closer look

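For 6 RGS genes the effect of latrunculin B differed between 24 h (against control 24 h) and 6 h (against control 0 h) in a test of the difference itself. The difference of the log2 fold changes was 1.75 for RGS16, 0.999 for RGS2, 0.94 for RGS5, 0.81 for RGS14, 0.71 for RGS3 and −1.05 for RGS17. RGS5, RGS14 and RGS17 kept the call when any 1 library was left out, but RGS14 lost it on log2(TPM + 0.1) and log2(TPM + 1) (0.37 and 0.34, adjusted p = 0.224 and 0.229, limma). RGS3 lost it without replicate 1 of control 24 h (0.66, adjusted p = 0.085), and RGS2 and RGS16 without most of the libraries compared. RGS2 and RGS16 kept the call in a fit without the 12 h libraries. The 2 effects rest on different controls, and no vehicle library of 6 h was used here. Their difference therefore includes any change between the controls. The samples were too few per group for a search for single libraries that stand apart, which needs 4.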

How the results depend on the processing

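Of 1388 member values recomputed under an alternative, 1269 stayed on their side of the threshold, 93 lost a call, 26 gained one and 0 called values changed sign. RGS4 and RGS16 at 12 h and 24 h, RGS5 at 24 h, RGS3 at 6 h and 12 h, and RGS17 at 6 h kept their calls under all alternatives run. An adjusted p under 0.01 left 3 of 6 members between LatB 6 h and LatB 24 h and 3 of 6 for the difference of effects. On log2(TPM + 1) 3 passed for the difference of effects, with RGS2, RGS14 and RGS16 lost, and on log2(TPM + 0.1) 5 of 8 passed at 12 h. At 3 h, where the counts only describe the comparison used for the choice, the count was 3 in place of 5 on both TPM scales. With control 24 h as the reference 4 of 7 passed at 6 h, with RGS5, RGS12 and RGS14 lost. A fit of only the compared groups gave 4 of 8 at 12 h, 3 in place of 1 between LatB 3 h and LatB 6 h, and 1 in place of 0 between the controls. There, no filter gave 1, DESeq2 1, and a fit without the 12 h libraries, added after the data were seen, 2. Leaving out 1 library gave 5 to 8 members at 12 h, 3 to 6 between LatB 6 h and LatB 24 h, and 3 to 5 for the difference of effects. The cause was not tested.

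Over all genes, calls at 12 h were 5988, and 2828 with only the compared groups or 3981 on log2(TPM + 0.1). Between the controls they were 42, and ranged from 2 (adjusted p under 0.01) to 248 (DESeq2). At an adjusted p under 0.01, 3400 of 5271 remained at 3 h, 3738 at 12 h, 4484 of 6809 at 24 h, 1888 of 3710 between LatB 3 h and LatB 6 h, 4116 of 6323 between LatB 6 h and LatB 24 h, and 1904 of 3754 for the difference of effects. The last was 2159 on log2(TPM + 1) and 2121 on log2(TPM + 0.1), and that between LatB 3 h and LatB 6 h 1751 and 1788. Without replicate 1 of control 24 h, calls at 24 h were 4034 and those for the difference of effects 2333.

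The replicate numbers did not pair the samples (correlation of deviations −0.21 to 0.11 for the same number). With the replicate block 5 members passed in place of 6 between LatB 6 h and LatB 24 h, and the count was 7 for the difference of effects, in which RGS4 is a description, and 4 at 3 h, also a description. The other counts were as before.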
